A study of Oryza sativa with 12 samples.

Results

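Among the 33277 rice genes that the study measured in crowns, 216 carry a product description that names an NB-ARC domain, and these genes are described here across both efficiency classes and both zinc supplies. The crown is the compact stem base from which leaves and crown roots emerge. Plants of 6 genotypes had grown for 8 days in Yoshida nutrient solution at a ZnSO4 supply of 1.5 µM (+Zn) or 0 µM (-Zn), and all groups also received KHCO3 (1 mM) and agar (0.1%). The Zn-efficient genotypes were IR55179-3B-11-3, Nipponbare and RIL46, and the Zn-inefficient ones were IR64, IR74 and Kinandang Patong. Each genotype gave 1 RNA library per supply, so the 12 libraries form 4 groups of 3, and the libraries of a group differ in genotype. A difference between classes therefore compares these 3 genotypes with those 3, and p-values rest on the spread between genotypes. Each deposited table gives a single line per gene, so single libraries, their depth and a genotype term were not analysed here. In bulk tissue, fewer cells of a type and less RNA per cell cannot be told apart.

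NB-ARC proteins are the intracellular immune receptors of plants. The NB-ARC domain binds a nucleotide and works as a switch, and most members of the family carry leucine-rich repeats behind it that take part in recognising pathogen effectors or the host proteins those effectors attack. Activation usually ends in a local defence response that can include death of the infected cell. Many of the rice genes bred for resistance to blast and to bacterial blight encode such receptors, and the family is known for tandem arrays and for large differences in gene content and sequence between cultivars. The descriptions were terse: 88 of the 216 began with a similarity to another NB-ARC protein, 1 also named leucine-rich repeats (OS11G0629600) and 1 named Pi-ta, a rice blast resistance protein (OS12G0281300). The rule finds domain names in descriptions, so receptors described in other words lie outside it.

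The genes were unevenly placed. By locus identifier, 83 of the 216 lay on chromosome 11 and 30 on chromosome 12, and the other chromosomes held between 4 (chromosome 9) and 15 each (chromosomes 1, 8 and 10). Chromosome 11 carried 38.4% of the NB-ARC genes against 6.3% of all 30454 genes with a locus identifier. Of the 216 genes, 73 sat in 17 groups of at least 3 neighbours whose locus numbers were no more than 1000 apart, 52 in pairs, and 91 had no NB-ARC neighbour at that distance. Reads of near-identical neighbours may have been split or lost in counting, and the sources used here do not give how reads with several matches were treated, so the counts of genes in such groups are uncertain.

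**Figure D1:**
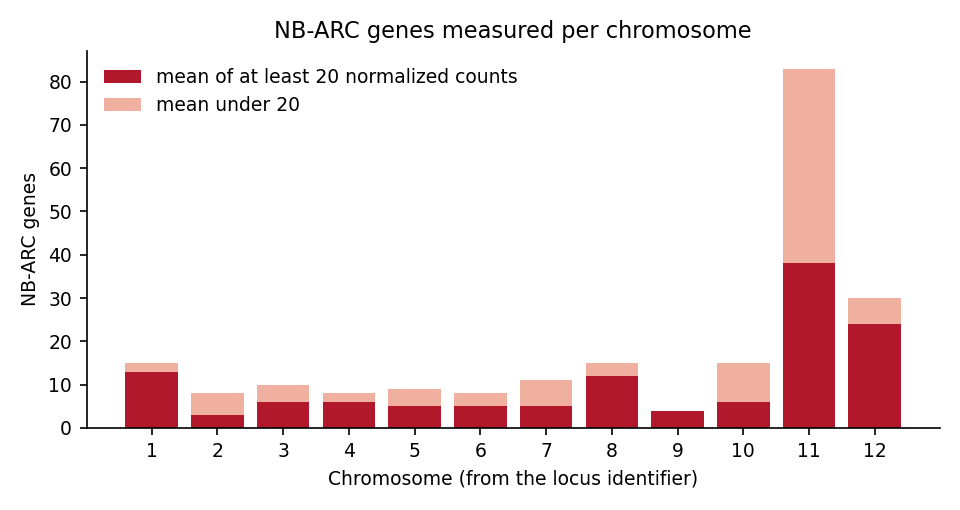
NB-ARC genes per chromosome, taken from the locus identifier; the dark part of a bar counts genes whose mean reached 20 normalized counts over all libraries and the light part those below it. Chromosome 11 holds 83 of the 216 genes, of which 38 reach that mean, and chromosome 12 holds 30, of which 24 do.

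NB-ARC genes gave modest read counts in the crown. Their median mean normalized count was 27.9 over all libraries (quartiles 9.11 and 73.0), against 49.4 for all genes, by the authors' deposited table. These counts are not per gene length and so do not rank the genes by transcript level. A mean of at least 20 was reached by 127 of the 216 (58.8%, against 61.3% of all genes), and a mean of at least 100 by 47. The transcript identifiers of 83 of the 216 (38.4%) ended only in 00, against 25.2% of all described genes, and the median mean of these 83 was 8.43 against 55.5 for the others. As a check of the tissue, the shoot meristem homeobox genes OSH1 (OS03G0727000) and OSH15 (OS07G0129700) had means of 1297 and 1407 normalized counts by the authors' deposited table. The crown root regulators CRL1 (OS03G0149100) and CRL5 (OS07G0124700) had 42.2 and 56.7 by the authors' deposited table. By the same source, 3 genes of the small subunit of the leaf enzyme Rubisco had between 7.91 and 30.2. These 3 share a description, and the treatment of reads with several matches is not given, so their low counts are a weak check.

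The values of these genes spread widely among libraries of a group. The standard error (SE) of the class difference without Zn had a median of 0.956 on the log2 scale for the 80 NB-ARC genes with a mean from 20 to 100, against 0.446 for the 7363 genes of all kinds in that range whose contrasts closed. Above a mean of 100 the medians were 0.293 (47 genes) and 0.216 (12958 genes). The dispersion that these SEs imply, which is the squared coefficient of variation among libraries of a group beyond counting noise, was as worked out from the authors' deposited tables. It had a median of 0.633 in the 20 to 100 range against 0.113 for all genes, which are coefficients of variation of 0.796 and 0.337. It exceeded 1 for 33 of the 80 (41.2%) against 11.5% of all genes, and above a mean of 100 for 9 of the 47 (19.1%) against 2.96%. No test was made of these differences, and the size of the spread cannot be assigned to single genotypes from these tables.

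**Figure D2:**
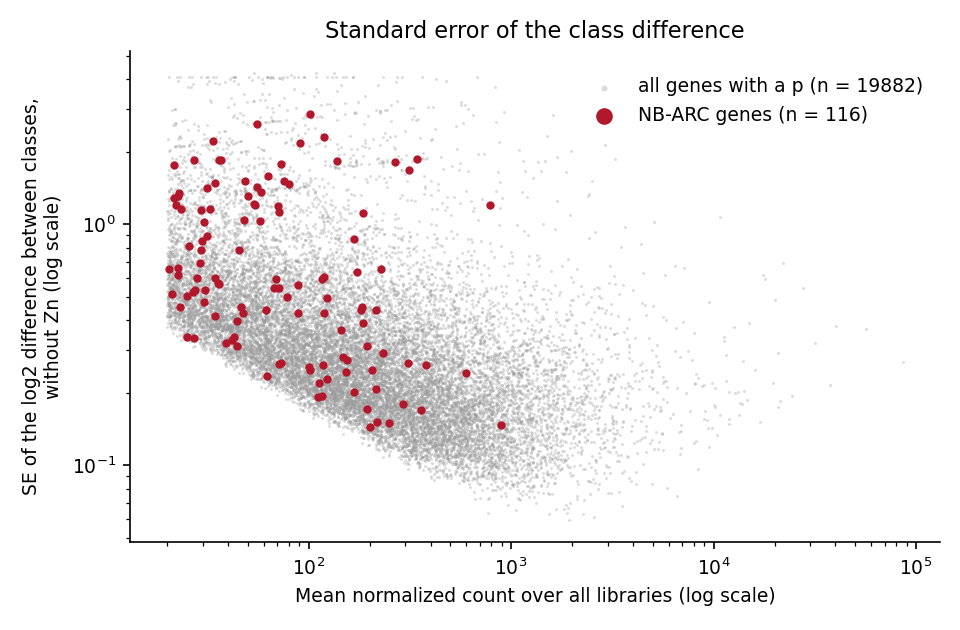
Standard error of the log2 difference between classes without Zn against the mean normalized count, both on log scales, for the 116 NB-ARC genes (red) and all 19882 genes (grey) with a mean of at least 20 and a p-value. Many of the red points lie in the upper part of the grey cloud at their mean, and the median SE of the NB-ARC genes with means from 20 to 100, including those with no p-value, was 0.956 against 0.446.

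The strongest cases of this kind had ordinary group means and a spread at the ceiling. Group means given here and below were derived from the deposited overall mean and the contrasts, assume that the groups weigh alike, and carry no error of their own. For OS11G0588600 the derived means were 150 and 143 normalized counts in efficient genotypes with and without Zn and 168 and 139 in inefficient ones, with an SE of 4.08 for the class difference without Zn, as worked out from the authors' deposited tables. Its dispersion of 12.0 was the highest that occurs among the NB-ARC genes and was shared by 7 of the 127 with a mean of at least 20 (5.51%, against 1.25% of all genes). Its neighbour OS11G0588400, by contrast, had an SE of 0.17 at derived means from 341 to 402. OS10G0136100, described as similar to the barley protein Hv1LRR2, was another gene at the ceiling, with derived means of 41.0 and 40.1 in efficient and 44.3 and 109 in inefficient genotypes. For 16 of the 216 genes (7.41%) the deposited table gave no p-value, against 2.29% of all genes, and OS11G0588600 and OS10G0136100 were among them. DESeq2 leaves the p-value out where a single library is an extreme outlier, and which library that was cannot be read from the tables.

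Some NB-ARC genes had reads in 1 class alone. DESeq2 writes a log2 fold change of exactly 0 where all libraries compared have a count of 0. The Zn response in inefficient genotypes was exactly 0 for 9 of the 216 NB-ARC genes by the authors' deposited table. It was exactly 0 for 1838 of all 33277 genes, a larger share. Of the 9 NB-ARC genes, 6 had a mean of at least 1, which is 2.78% of the 216 genes, against 0.893% of all genes. OS04G0205200 averaged 25.8 normalized counts over the 6 libraries of efficient genotypes, OS02G0438700 averaged 14.1 and OS06G0279900 averaged 8.27, as worked out from the authors' deposited tables. OS11G0579100, OS11G0623800 and OS11G0677000 averaged 5.60, 4.76 and 3.06. The reverse pattern, exactly 0 in efficient genotypes at a mean of at least 1, was seen for 0 NB-ARC genes and for 0.183% of all genes. At any mean it was seen for 3 NB-ARC genes and for 1524 genes of all kinds. A near case had more reads. OS05G0216950 came near the reverse pattern, with derived means of 0.178 and 0.35 normalized counts in efficient and 15.8 and 38.2 in inefficient genotypes. None of the 7 genes named here passed a class test: OS04G0205200, OS02G0438700 and OS05G0216950 had no p-value, and the SEs of the Zn response in efficient genotypes were between 4.09 and 4.13 for the 6 named genes at 0. Nipponbare, an efficient genotype, is also the reference genome, and what that adds to these counts was not tested.

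Without Zn, no NB-ARC gene passed the authors' test of a difference between the classes. A gene is called here when the authors' DESeq2 test of a change beyond 2-fold has an adjusted p-value under 0.05, adjusted by the authors over the genes that the low-count filter of DESeq2 left in that comparison. By this rule 0 of the 200 tested NB-ARC genes were higher and 0 lower in inefficient genotypes, where 0.274% of all genes were higher and 0.0246% lower, and all 200 adjusted p-values were 1. At an unadjusted p-value under 0.05 there were 2 of 200, beside 425 of 32514 genes of all kinds, namely OS02G0282000 with 3.36 (SE 0.90, p = 0.0087) and OS11G0226800 with 2.03 (SE 0.50, p = 0.0369) by the authors' deposited table. The next smallest unadjusted p-value was 0.0732, for OS08G0539900 at −4.38 (SE 1.89) by the authors' deposited table. The median log2 difference was 0.03 over the 200 genes, with 101 positive and 98 negative, beside a median of 0.00 over all genes.

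A test of any change, with the log2 difference over its SE and Benjamini-Hochberg adjustment over all genes, placed 8 of the 200 genes higher in inefficient genotypes without Zn (4%, against 2.44% of all genes) and 0 lower (against 1.6%). The clearest was OS11G0266500 at 1.39 (SE 0.27; adjusted p = 2.93e-05), followed by OS11G0226800 (adjusted p = 0.00272), as worked out from the authors' deposited table. OS02G0282000, OS12G0209901, OS04G0491100, OS01G0799100, OS11G0207400 and OS05G0414200 were the others, and the smallest difference among the 8 was 0.48 (SE 0.15), that of OS05G0414200, by the authors' deposited table. For OS11G0226800 the derived means were 48.1 and 62.5 normalized counts in efficient genotypes with and without Zn and 127 and 256 in inefficient ones, so it stood higher in inefficient genotypes at both supplies.

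With Zn, the NB-ARC genes lay below the efficient genotypes more often than above them, but none passed the test. Of the 200 tested, 0 were called higher and 0 lower, where 0% of all genes were higher and 0.00923% lower, and 0 had an unadjusted p-value under 0.05 by DESeq2. The test of any change also called 0 higher and 0 lower, where 0.0185% and 0.0492% of all genes were called. The log2 difference was negative for 129 genes (64.5%) and positive for 69, with a median of −0.22, while 49% of all genes were negative and their median was 0.00. Among the 116 genes whose mean reached 20 the median was −0.25 and 80 were negative. OS12G0467300 is an example with ample reads, at −1.80 (SE 0.66) by the authors' deposited table, and OS02G0612200 lay at −1.47 (SE 0.63) by the authors' deposited table.

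The class differences with and without Zn share no library, though they share the 6 genotypes. Among the 116 genes, 47 were lower in inefficient genotypes at both supplies (40.5%, against 26.4% of the 19882 genes of all kinds), 29 were higher at both (25%, against 25.9%), and 33 were lower with Zn and higher without it (28.4%, against 24.9%). Only 7 were higher with Zn and lower without it (6.03%, against 22.7%). A size beyond 2-fold at both supplies in 1 direction was reached by 8 of the 116. Of these, 6 were lower (5.17%, against 1.05% of all genes) and 2 higher (1.72%, against 0.568%). The median SE of the class difference was 0.564 without Zn and 0.581 with Zn for the 116. For all genes whose mean reached 20 it was 0.283 and 0.284. What the larger SEs add to these shares was not tested. The 6 lower ones were OS06G0707700, OS11G0225300, OS11G0640300, OS11G0686900, OS12G0495600 and OS12G0552900, with log2 differences without Zn between −1.39 and −2.27 and SEs between 1.21 and 2.17 by the authors' deposited table. The 2 higher ones were OS11G0226800 and OS04G0118800, the latter with 1.98 (SE 0.81) without and 1.49 (SE 0.93) with Zn by the authors' deposited table. In the comparison pooled over both supplies, 0 of 199 genes were called higher and 0 lower, where 0.0339% and 0.0185% of all genes were, and 2 had an unadjusted p-value under 0.05, as did 188 of the 32461 genes of all kinds. The 2 NB-ARC genes were OS11G0226800 at 1.72 (SE 0.35, p = 0.039) and OS08G0539900 at −3.38 (SE 1.17, p = 0.0423) by the authors' deposited table. The test of any change called 1 higher in the pooled comparison (against 0.333% of all genes) and 0 lower (against 0.471%).

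**Figure D3:**
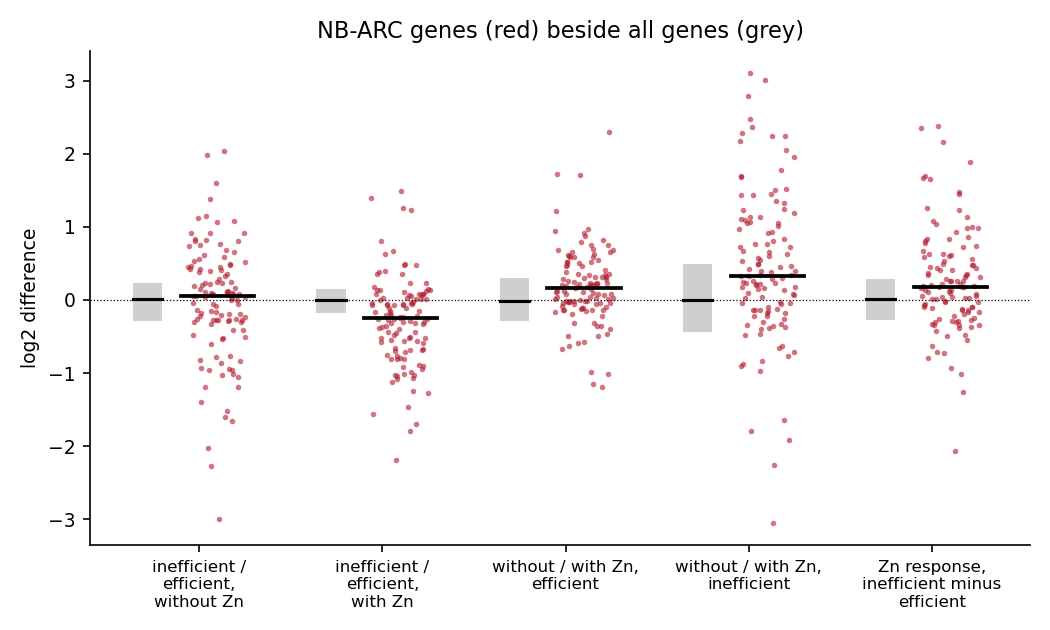
The log2 difference of each of the 116 NB-ARC genes whose mean reached 20 and a p-value (red points, spread sideways at random; black line, their median) in 4 comparisons and in the difference of the Zn responses, beside the median and the quartiles of all 19882 such genes (black line on grey bar). The red medians are −0.25 for inefficient over efficient with Zn and 0.33 for without over with Zn in inefficient genotypes.

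When Zn was withheld, 5 NB-ARC genes rose in the inefficient genotypes and 0 fell. These were 5 of 163 tested, or 3.07%, where 2.42% of all genes rose and 1.08% fell, so the share that rose was near that of all genes. OS11G0266500 went from 139 to 676 normalized counts (derived means), a rise of 2.28 (SE 0.27; adjusted p = 0.000169) by the authors' deposited table. In efficient genotypes it had derived means of 169 with and 258 without Zn, so of the 4 groups the inefficient one without Zn stood highest. Its class difference with Zn was −0.285 (SE 0.276) by the authors' deposited table, so the order of the groups with Zn is not known. OS04G0491100 went from 13.4 to 115, a rise of 3.10 (SE 0.49; adjusted p = 0.00107) by the authors' deposited table. OS02G0282000 went from 1.64 to 67.2, a rise of 5.35 (SE 1.06; adjusted p = 0.0022) by the authors' deposited table, and its low starting mean makes that size imprecise.

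OS02G0612200 and OS11G0207400 were the remaining rises. OS02G0612200 went from 8.98 to 72.2 normalized counts, by 3.01 (SE 0.62; adjusted p = 0.034) by the authors' deposited table, and with Zn its inefficient group lay below the efficient one (8.98 against 24.8). OS11G0207400 went from 10.6 to 50.3, by 2.25 (SE 0.39; adjusted p = 0.0419) by the authors' deposited table, and it no longer passed (adjusted p = 0.0565) when every gene with a p-value was counted in the adjustment. No description says more of these 5 genes than the domain.

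The movement in inefficient genotypes went beyond the called genes. The log2 response was positive for 106 of the 163 (65%, against 50.2% of all genes), with a median of 0.25 against 0.00. Over the 116 genes whose mean reached 20 it lay above 1 for 32 (27.6%, against 12.3%) and below −1 for 5 (4.31%, against 11%). The median SE of this response was 0.582 for the 116, against 0.284 for all genes whose mean reached 20. A larger SE spreads values more widely and leaves fewer to pass a test, and what it adds to the shares given here was not tested. The test of any change found 26 of 200 higher (13%, against 12% of all genes) and 5 lower (2.5%, against 10.5%). Thus the share of genes that rose was close to that of all genes and the share that fell was smaller. The genes that rose by this test included the neighbours OS12G0209901 and OS12G0209800 at 1.68 (SE 0.24) and 1.96 (SE 0.37), while the next gene of that group, OS12G0210000, had −0.98 (SE 0.45), by the authors' deposited table. OS11G0629600, the gene whose description names leucine-rich repeats, had 1.43 (SE 0.30) by the authors' deposited table and also rose by this test. OS07G0105900 and OS06G0146100 were among the 5 that fell by it, at −1.92 (SE 0.38) and −0.91 (SE 0.18) by the authors' deposited table. The inefficient libraries with Zn serve both as the base of this response and as a side of the class difference with Zn, so the low values there and the positive values here are not independent.

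In the efficient genotypes 0 of 180 tested NB-ARC genes rose and 0 fell, where 0.246% of all genes rose and 0.0345% fell, and 0 had an unadjusted p-value under 0.05 by DESeq2. The test of any change found 4 of 200 higher (2%, against 3.56%) and 1 lower (0.5%, against 2.1%). The response was positive for 107 of the 180 (59.4%, against 49.6% of all genes) with a median of 0.12. OS11G0270500 had close values in both classes, 1.73 (SE 0.44) in efficient and 1.70 (SE 0.44) in inefficient genotypes by the authors' deposited table, from derived means of 40.3 to 134 and of 42.6 to 138. OS01G0721000 had 0.76 (SE 0.21) and 0.77 (SE 0.21) by the authors' deposited table, and both genes passed the test of any change in each class. Over both classes 1 of 172 genes rose (0.581%, where 0.922% of all genes did) and 0 fell (where 0.197% did), the riser being OS02G0282000 at 4.04 (SE 0.85; adjusted p = 0.0344) by the authors' deposited table.

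**Figure D4:**
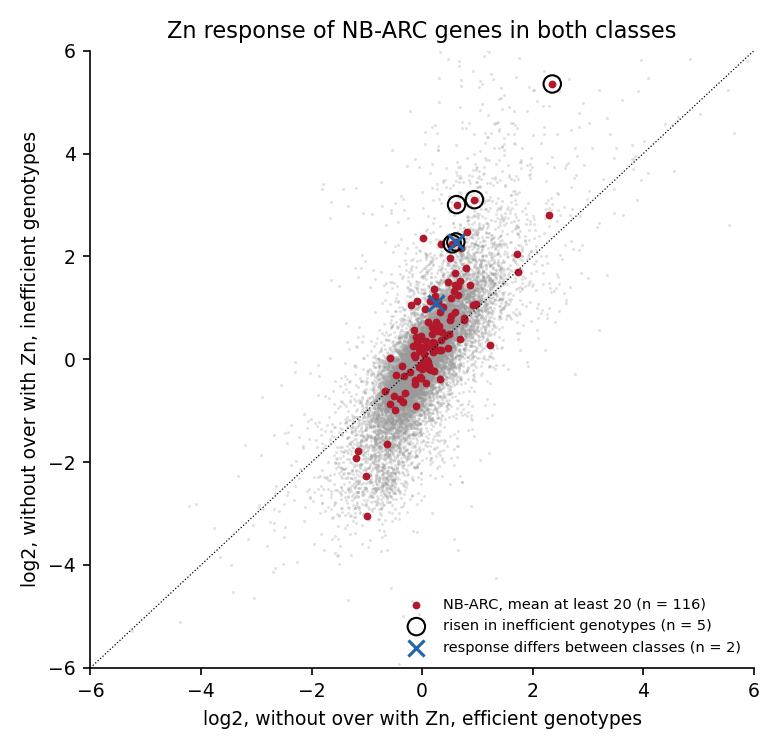
Zn response (log2, without over with Zn) in inefficient against efficient genotypes for the NB-ARC genes whose mean reached 20 and a p-value (red) and all such genes (grey; values beyond 6 in size not drawn); circles mark the 5 genes that rose in inefficient genotypes, of which OS02G0282000 has a mean under 20, and crosses the 2 whose response differed between classes. All 5 circled points lie above the dotted line of equal response, which their choice by a rise on the vertical axis favours. Among them OS11G0266500 alone passed the test of the response difference.

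The response itself was compared between classes by subtracting the efficient from the inefficient log2 fold change and dividing by the SE of that difference, since a call in 1 class alone does not show a difference. Of 163 genes, 2 responded more strongly in inefficient genotypes (1.23%, where 1.58% of all genes did) and 0 less strongly (where 0.783% did). OS11G0266500 had a difference of 1.67 (SE 0.38; adjusted p = 0.00205), and OS05G0414200 of 0.83 (SE 0.22; adjusted p = 0.0111), as worked out from the authors' deposited tables. OS05G0414200 had derived means of 214 and 256 normalized counts in efficient genotypes and of 167 and 357 in inefficient ones with and without Zn, and its response in inefficient genotypes, 1.09 (SE 0.15), did not pass the test beyond 2-fold by the authors' deposited table. Its neighbour OS05G0414300, with a similar overall mean of 218, had 0.25 (SE 0.15) in inefficient genotypes by the authors' deposited table. The other called genes missed the threshold, with adjusted p = 0.0661 for OS04G0491100, 0.0676 for OS11G0207400, 0.119 for OS02G0612200 and 0.453 for OS02G0282000. The difference was positive for 100 of the 163 genes (61.3%, against 51.5% of all genes), with a median of 0.17 against 0.02.

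**Figure D5:**
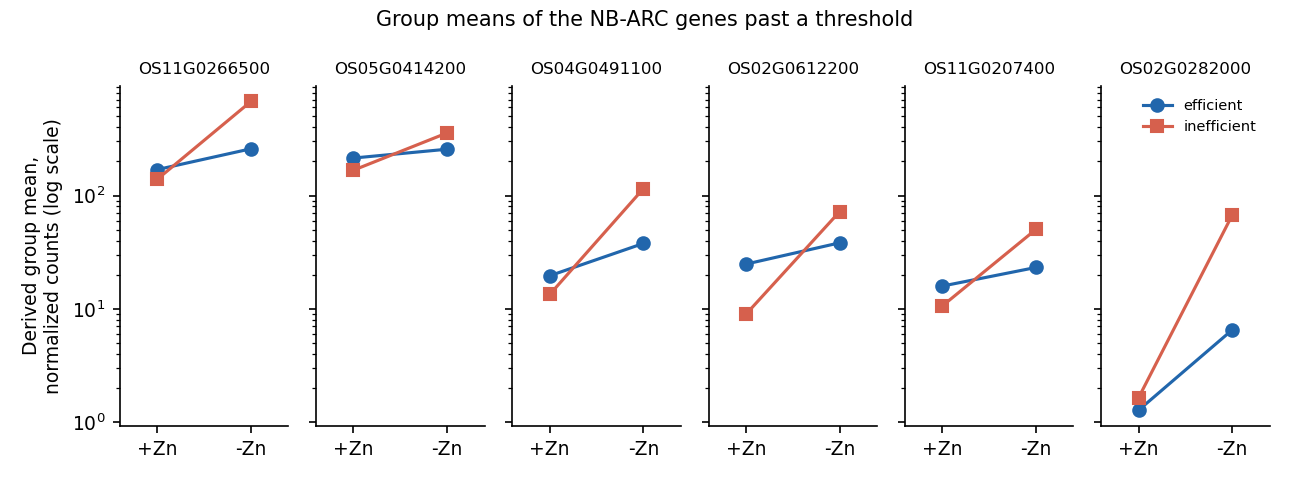
Derived group means (normalized counts, log scale, no error available) with and without Zn in efficient (blue circles) and inefficient genotypes (red squares) for the 6 NB-ARC genes that passed the test in inefficient genotypes or the test of the response difference. In all but OS02G0282000 the inefficient mean is the lower of the pair with Zn, and in all 6 it is the higher without Zn. The genes were picked by tests that favour such a pattern.

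Of the 8 NB-ARC genes with the highest counts, OS11G0266500 was the 1 that was called in any comparison. OS05G0240200, with a mean of 887 normalized counts, had a Zn response of 0.02 (SE 0.15) in efficient and 0.22 (SE 0.15) in inefficient genotypes by the authors' deposited table. OS01G0937400 and its neighbour OS01G0937300, with means of 601 and 381, had responses between −0.05 and 0.30 with SEs between 0.24 and 0.26 by the authors' deposited table. OS12G0270300 had a mean of 791 but an SE of 1.20 for the class difference without Zn, which was −1.01 by the authors' deposited table, and OS09G0365300 and OS11G0639600 had SEs of 1.87 and 1.68 at means of 343 and 312. A high read count thus did not bring a small SE for OS12G0270300, OS09G0365300 and OS11G0639600. For the rest of the 8 the SE of that class difference lay between 0.15 and 0.27. OS11G0588400 and OS11G0266500, described above, complete the 8 with the highest means. For OS12G0281300, the gene described as similar to Pi-ta, derived means were 26.5 and 23.1 in efficient and 18.6 and 38.7 in inefficient genotypes, and its response of 1.06 (SE 0.53) in inefficient genotypes did not pass by the authors' deposited table. Of the other rice resistance loci looked up by identifier, Pid3 (OS06G0330100), described as a blast resistance protein, had a mean of 72.0 and an SE of 2.70 for the class difference without Zn, and Pit (OS01G0149500) had a mean of 11.4 and a class difference without Zn of 0.09 (SE 0.75) by the authors' deposited table. Both descriptions lack the domain name, so neither is among the 216.

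Neighbouring NB-ARC genes did not always share the sign of their values. None of the 17 groups of at least 3 neighbours held a called gene, so the 8 groups of at least 4 genes are given, a size chosen after the values were seen. The 8 genes from OS11G0673600 to OS11G0677101 all had means under 20, and their class differences without Zn ran from −3.99 to 3.41, with 3 positive and 4 negative. The ends of that range were OS11G0677000 (SE 4.27) and OS11G0677101 (SE 4.29), so the direction of neither is known. For the same difference the 7 genes from OS11G0604900 to OS11G0606800 ran from −2.11 to 2.07 and the 6 from OS11G0492100 to OS11G0493100 from −3.40 to 1.46. The 5 from OS07G0117000 to OS07G0117900 ran from −3.15 to 1.25 and the 5 from OS11G0589800 to OS11G0591000 from −1.30 to 2.41. The ends at 2.07 (OS11G0604900) and 2.41 (OS11G0590700, SE 3.08) were genes with no p-value. The 7 genes from OS10G0132700 to OS10G0136100 had positive responses in inefficient genotypes in 6 cases, between −0.02 and 3.19 with a median of 2.06, though 5 of them had means under 20 and 1 had no p-value. The 4 genes from OS12G0511400 to OS12G0512400 ran from −1.36 to 0.22 without Zn, and their responses in inefficient genotypes were all positive, from 0.20 to 1.25. Among the 8 groups, 1 had a single sign in the class difference without Zn. All 4 genes from OS11G0639600 to OS11G0640600 were lower in inefficient genotypes in value at both supplies. They ran from −0.51 to −1.72 without Zn and from −0.40 to −2.44 with Zn, and none passed. Several groups of 3 genes also had a single sign without Zn. Those starting at OS10G0131000, OS11G0686500 and OS12G0552900 were lower in inefficient genotypes in value, and those at OS11G0222900 and OS11G0237900 higher in value. In the group at OS11G0222900 the SEs lay between 4.09 and 4.10, and 2 genes had no p-value. OS10G0131000 and OS11G0238000 had means of 0.318 and 0.0933 and SEs of 4.37 and 4.41. The direction of genes with such SEs is not known, and no gene of these groups was called. The groups of 3 starting at OS01G0721000, OS11G0161000, OS11G0226800 and OS12G0209800 had both signs. All log2 values of these groups are from the authors' deposited tables.

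Genes that act with NB-ARC receptors were read beside them, from a list chosen with earlier results of these data known. Its shares beside those of all genes are therefore descriptive only. SGT1 and RAR1, with the chaperone HSP90, stabilise the receptors, RAC1 is a small GTPase of rice immunity, and NPR1-like proteins and WRKY45 act in salicylic acid signalling. Of the 8 such genes whose description bore the name out, 1 rose in inefficient genotypes (where 2.42% of all genes did) and 0 fell, and 0 were called in efficient ones. WRKY45 (OS05G0322900) was the riser, at 4.59 (adjusted p = 7.01e-24 by DESeq2) by the authors' deposited table. It was also the 1 partner called higher in inefficient genotypes without Zn, where 0.274% of all genes were. That difference was 3.35 (SE 0.33; adjusted p = 2.62e-09 by DESeq2) by the authors' deposited table. Over both classes WRKY45 rose by 2.97 (SE 0.50; adjusted p = 0.0105 by DESeq2) by the authors' deposited table. All 8 had means above 100, and at means of at least 100 the response difference called 432 of 12831 genes of all kinds in either direction. For the response difference 3 of the 8 were higher in inefficient genotypes, where 1.58% of all genes were. They were WRKY45, the NPR1-like gene OS03G0667100 with 1.38 (SE 0.42; adjusted p = 0.0436) and SGT1 (OS01G0624500) with 0.71 (SE 0.20; adjusted p = 0.0274), as worked out from the authors' deposited tables. RAR1 (OS02G0535400), with a difference of −0.06 (SE 0.33), and the HSP90 gene OS06G0716700, with 0.24 (SE 0.30), did not pass, as worked out from the authors' deposited tables. Another gene of the SGT1 family, OS08G0447200, had 0.23 (SE 0.31) and did not pass. NPR1 (OS01G0194300) with 0.62 (SE 0.42) and RAC1 (OS01G0229400) with −0.50 (SE 0.35) did not pass either, as worked out from the authors' deposited tables.

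The 122 genes described by disease resistance without the domain name are the most similar set in the tables. At means from 20 to 100 their median dispersion was 0.343 (44 genes), below the 0.633 of NB-ARC genes. At means of at least 100 the order was the reverse, with 0.107 (34 genes) against 0.0586, and both sets lay above all genes in both ranges. In inefficient genotypes 3 of 92 tested rose (3.26%, against 2.42% of all genes) and 0 fell (against 1.08%), with a median response of 0.36 against 0.25 for the NB-ARC genes, and with Zn their median class difference was −0.21. In efficient genotypes the response was positive for 74.7% of them, with a median of 0.34 beside 0.12 for the NB-ARC genes. These differences between the sets were not tested.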

How the data were processed

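Libraries of 12 crown samples were processed by the authors with HISAT2 2.0.4 on build IRGSP-1.0, DESeq2 1.12.3, featureCounts (Subread 1.5.0-p3), Trimmomatic 0.36 and FastQC 0.11.5, per the submitters' processing notes. The sources used here give neither parameters nor the annotation release. The deposited files are 6 tables of comparisons. Per the file headers, each deposited table gives the mean normalized count (a signal: counts over size factors), the log2 fold change, its SE and a test score, the p-value and the adjusted p-value. The deposited score equals the log2 fold change less 1 in size over its SE, so the authors' test asks for a change beyond 2-fold. Depth per library is unknown here.

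The members were read from the decoded descriptions. Group means and dispersions were derived only where the 4 group contrasts closed to within 0.01, which 12 of the 216 genes, with means up to 12.9, did not. The response difference used a two-sided normal p with Benjamini-Hochberg adjustment over 24127 genes tested in both classes. These steps were tested on simulated data. Alternatives were a threshold of 0.01, a mean of at least 20, a test of no change, adjustment over every gene with a p, and a narrower rule for members. Named genes are called ones, the 8 with the highest means, any with a named resistance protein, and partners; genes singled out for spread, reads in 1 class, neighbours or shared values were chosen after their values were seen. The members and lists were chosen with earlier results of these data known. Names of partner, marker and resistance loci are general knowledge, kept only where the description bears the name out; EDS1, PAD4, RGA4 and RGA5 were dropped by this rule, and Pish and Xa1 were not analysed here. Rice locus identifiers had no match in the RefSeq gene table, so no coordinates or sequences are given. Software was matplotlib 3.10.9, scipy 1.17.1, Python 3.11.15, numpy 2.4.6 and pandas 2.3.3.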

Additional observations from a re-analysis of the deposited data

Results flagged for a closer look

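The Zn response of OS11G0266500 differed between the classes by 1.67 (SE 0.38), inefficient minus efficient, with 2.28 (SE 0.27) in inefficient and 0.61 (SE 0.27) in efficient genotypes by the authors' deposited tables. That of OS05G0414200 differed by 0.83 (SE 0.22), with 1.09 (SE 0.15) and 0.26 (SE 0.15) by the authors' deposited tables. Both were singled out because the test of the difference itself passed, with adjusted p = 0.00205 and 0.0111.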

How the results depend on the processing

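No paired analysis was possible because the tables hold no values per library, although each genotype gave a library at both supplies; leaving out single libraries was not possible for the same reason. Counts of called NB-ARC genes depended mainly on the null hypothesis. With a test of no change, 8 genes were higher in inefficient genotypes without Zn and 1 over both supplies (0 in each by the authors' test). With Zn withheld, 4 rose and 1 fell in efficient genotypes (0 and 0), and 26 rose and 5 fell in inefficient ones (5 and 0). Over both classes 26 of 199 rose (13.1%, against 13.4% of all genes) and 4 fell (2.01%, against 12%). The authors' test called 1 and 0 there. Shares of all genes for the other comparisons by this test are given above. At an adjusted p under 0.01, 3 rose in inefficient genotypes, 0 over both classes and 1 differed in response. With p adjusted over genes with a mean of at least 20, 0 rose over both classes, 4 rose in inefficient genotypes and 3 differed in response. OS02G0282000, which rose in both of these Zn comparisons by the authors' test, has a mean of 19.2. It lies outside that set and so could not be called there. The narrower rule left 1 gene, so 0 rose in inefficient genotypes or over both classes and 0 differed in response. With p adjusted over every gene with a p, OS11G0207400 was lost (adjusted p = 0.0565). The 7 medians over NB-ARC genes kept their sign among those whose mean reached 20. Depth per library is unknown, and with 3 genotypes a group the large SEs limit what the tests could call.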
